A study of Mus musculus with 2 samples.

Results

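The genes described are the 10 hormone genes of enteroendocrine cells, Ghrl, Gcg, Cck, Gip, Sct, Sst, Nts, Pyy, Tac1 and Tph1, out of 32285 genes counted. They were followed in single-cell RNA-seq of C57BL/6 mouse proximal small intestine, in barcodes with at least 2 unique molecular identifiers (UMIs, 1 per captured RNA molecule) of Chga or Chgb and at least 500 genes. These are called chromogranin barcodes here, after the granule proteins that Chga and Chgb encode. There were 59 of 9342 barcodes in control 1 and 21 of 7109 in control 2, which is 0.632% and 0.295%. All other barcodes of the same library served as the background. The study concerns the M1 and M3 muscarinic acetylcholine receptors, and each of its libraries is titled a control, for M1 (control 1) or for M3 (control 2), with C57BL/6 as the only genotype given. The EDTA fraction of the tissue, rich in villi, and the TrypLE fraction, rich in crypts, were combined before loading. With 1 library from each source and 1 group, nothing was tested between the libraries. Neither the number of mice behind a library nor their age is stated.

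Enteroendocrine cells are rare, scattered hormone-secreting cells of the gut epithelium that sense the content of the lumen and release their product at the basal side. They descend from crypt stem cells through progenitors that transiently express Neurog3, and their peptides are cut from larger precursors and stored with chromogranins in dense-core granules. Classical names give a cell by its main product, such as S cells for secretin, I cells for cholecystokinin, K cells for GIP and enterochromaffin cells for serotonin, while single-cell work in mouse has shown that 1 cell often makes several of them.

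The windows before the transcription starts of Sct, Cck and Gip are printed because these genes gave most hormone UMIs in both libraries together with Ghrl, and because Sct shared barcodes with both others. Sequences are from RefSeq on GRCm38.p6, 5′ to 3′ along the gene, from 250 bases before the start to 50 after it. Capitals mark the E-box letters CAGCTG and CAGATG, a class of site that basic helix-loop-helix factors such as NEUROD1 bind, searched on both strands.
Sct, chr7:141279084-141279383, minus strand: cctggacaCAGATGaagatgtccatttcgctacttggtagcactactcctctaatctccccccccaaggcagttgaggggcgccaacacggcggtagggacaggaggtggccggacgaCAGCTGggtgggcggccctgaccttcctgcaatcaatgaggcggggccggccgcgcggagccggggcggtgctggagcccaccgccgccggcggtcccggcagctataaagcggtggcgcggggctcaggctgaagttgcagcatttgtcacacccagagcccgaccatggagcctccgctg
Cck, chr9:121495645-121495944, minus strand: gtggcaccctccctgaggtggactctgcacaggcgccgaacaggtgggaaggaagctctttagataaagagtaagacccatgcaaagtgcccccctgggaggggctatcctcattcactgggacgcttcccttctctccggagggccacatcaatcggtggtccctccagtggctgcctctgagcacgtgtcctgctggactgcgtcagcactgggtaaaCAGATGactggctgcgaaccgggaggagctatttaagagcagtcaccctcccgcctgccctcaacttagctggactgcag
Gip, chr11:96024295-96024594, plus strand: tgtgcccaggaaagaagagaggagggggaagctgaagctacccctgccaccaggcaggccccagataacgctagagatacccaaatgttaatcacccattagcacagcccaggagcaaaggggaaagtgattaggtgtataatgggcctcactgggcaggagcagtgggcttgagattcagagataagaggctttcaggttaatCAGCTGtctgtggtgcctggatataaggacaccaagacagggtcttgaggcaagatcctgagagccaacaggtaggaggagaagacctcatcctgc
CAGCTG stood in 16.3% and CAGATG in 17.2% of the 32851 promoter windows of the mouse RefSeq set, and either of them in 30.6%. All 10 members had at least 1 window, 15 in all. At least 1 of the 2 E-boxes was found in 9 of these 15 windows, which belonged to 7 of the 10 genes. The Ghrl windows chr6:113719405-113719704 and chr6:113719416-113719715 overlap. The same CAGATG match, at 3 and 14 from their starts, counts in both. The 30.6% is a share of windows, and some genes have several, so it does not compare with the 7 of 10 genes. Sct held both, CAGATG at -242 and CAGCTG at -132 from the start, while Cck held CAGATG at -30 and Gip CAGCTG at -46. The cyclic AMP response element TGACGTCA, present in 1.79% of windows, was found in Sst at -48 and in no other member. These matches describe letters only, and no binding was measured here.

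The 10 genes lie on 7 chromosomes of GRCm38 in the GENCODE M21 annotation, all as protein-coding genes. Ghrl (chr6:113716119-113719880, minus) and Tac1 (chr6:7554879-7565834, plus) share chromosome 6. Sct (chr7:141278330-141279133, minus) and Tph1 (chr7:46644641-46672537, minus) share chromosome 7, and Gip (chr11:96024545-96030831, plus) and Pyy (chr11:102106676-102107832, minus) share chromosome 11. Gcg lies at chr2:62474530-62483650, Cck at chr9:121489824-121495694, Nts at chr10:102481756-102490486 and Sst at chr16:23889573-23890958, all on the minus strand. Only Ghrl overlaps other annotated genes, Gm26982 and Gm44033 on the opposite strand. No source used here says whether counting used the strand. If it did not, RNA of these genes cannot be told apart from Ghrl.

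The chromogranin barcodes were deeper than the rest, with a median of 16714 UMIs against 3111 in all other barcodes of control 1, and 13146 against 2482.5 in control 2. They were also mixed. Of the 10 further enteroendocrine markers (Neurod1, Isl1, Pax6, Fev, Scg3, Scgn, Rfx6, Insm1, Scg5 and Pcsk1), at least 3 UMIs in sum were present in 35 of 59 and 14 of 21 barcodes, and none in 24 and 4. In control 1, 7 barcodes over 50000 UMIs held 48.5% of all UMIs of the set, and in control 2 a single barcode of 615784 UMIs held 57.8%. That single barcode carried 183536 UMIs of Paneth cell markers (Lyz1, defensins and others), and 1 barcode of control 1 carried 84823. Summed over the set, the 7 Paneth markers reached 63006 and 172231 UMIs per 1000000 UMIs of the set (CPM), against 9539 and 6993 in all other barcodes of controls 1 and 2. At least 2 UMIs of Cd3d, Cd3e and Cd3g, T cell genes, were found in 9 and 3 of the barcodes. The 7 stem and progenitor markers stood at 541.1 and 2037 CPM in the set, against 306.2 and 158.5 in all other barcodes, and without barcodes over 50000 UMIs at 35.9 and 55.0. Of the 6 enteric neuron markers 5 and 3 were detected in the set, with 63 and 34 UMIs in sum (36.4 and 31.9 CPM), against 77 and 50 UMIs (1.46 and 1.43 CPM) in all other barcodes. Ret, a receptor tyrosine kinase of enteric neurons, gave 50 and 25 of these UMIs in the set. Among other lineages, 5 and 6 of 8 tuft markers and 6 and 8 of 9 mast cell markers were at 0 in the set. Cpa3, Mcpt2 and Fcer1a, which define mast cells, were at 0 in both libraries. No barcode sequence of the set occurred in both libraries, and doublets were not removed.

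Near the limit of the rule, the 30 and 7 barcodes with 2 to 4 UMIs of Chga or Chgb held a hormone gene at 5 or more UMIs in 7 and 2 cases. All 29 and all 14 barcodes with 5 or more UMIs of Chga or Chgb did so. Just outside, with 1 UMI, 16 of 199 and 1 of 64 barcodes did so.

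Hormone RNA lay almost entirely in the few chromogranin barcodes, which held 95.4% of the 79652 UMIs of the 10 genes in control 1 and 93.4% of 39696 in control 2. In both libraries Sct, Cck and Gip were among the highest, Ghrl was high in control 1, and Gcg, Nts, Tac1, Pyy and Sst reached 5 UMIs in 5 barcodes or fewer. The genes made up as much as 39.0% and 31.9% of the UMIs of 1 barcode, while the highest share outside the set, among barcodes with 500 or more genes, was 1.42% and 0.919%. Among other barcodes with fewer genes it reached 19.3% in control 1 (118 of 611 UMIs, 317 genes) and 26.2% in control 2 (216 of 823 UMIs, 341 genes). At least 1 of the 10 genes reached 5 UMIs in 36 of 59 and 16 of 21 chromogranin barcodes, and none gave a single UMI in 14 and 3 of them.

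**Figure D1:**
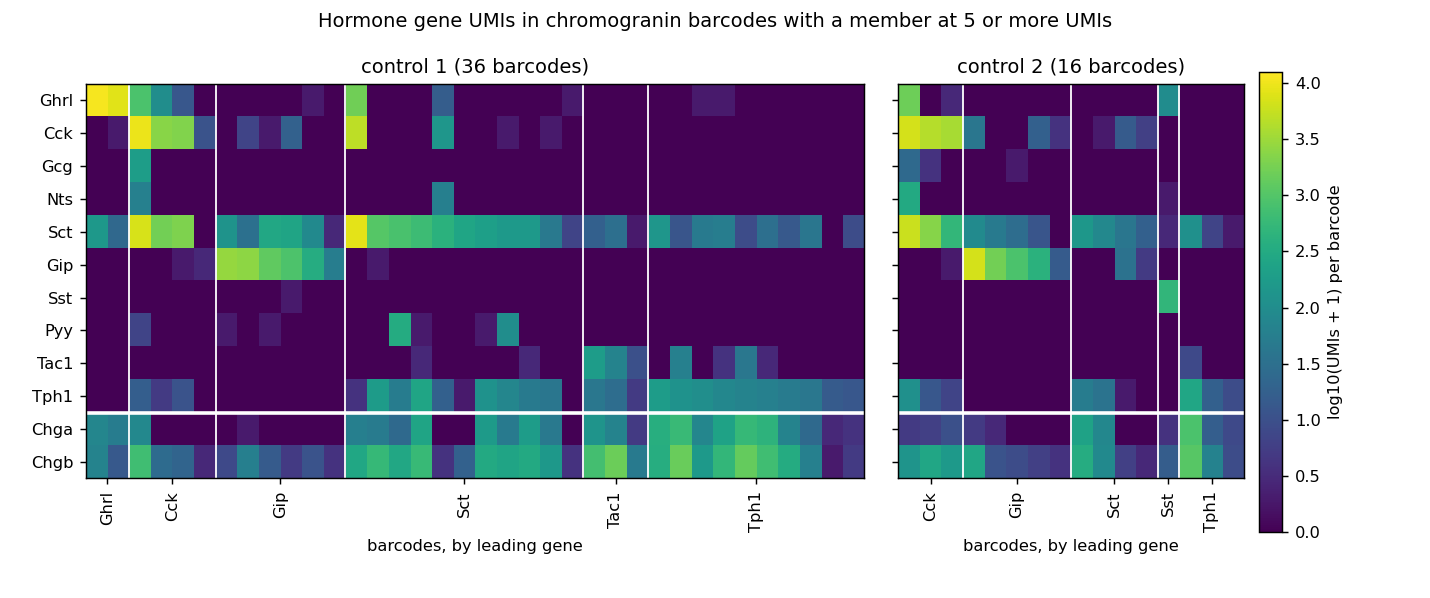
UMIs of the 10 hormone genes and of Chga and Chgb (rows) in each chromogranin barcode with a hormone gene at 5 or more UMIs (columns; 36 in control 1, 16 in control 2), as log10(UMIs + 1). Columns are grouped by the hormone gene with most UMIs; Sct runs through most groups, and no column holds both Gip and Tph1 at 5 or more UMIs.

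Counts were summed over the chromogranin barcodes and over all other barcodes of each library, and the 2 sums of one kind were compared with the 2 of the other in edgeR's quasi-likelihood test, with the library as a block. Of 15133 genes tested, Chga and Chgb left out, 1650 (10.9%) were higher and 1606 (10.6%) lower in the chromogranin barcodes at a Benjamini-Hochberg adjusted p under 0.05. Of the 10 hormone genes 9 passed the filter on low counts, and all 9 were higher. The filter asked for 0.543 CPM in at least 2 of the 4 sums. Of the 9 members, 6 reached that level in both sums of other barcodes. The remaining 3, Gcg, Nts and Tac1, could pass only with counts in the chromogranin barcodes. The count of 9 and the p-values of these 3 are therefore a description. Pyy did not pass. The 2 chromogranin genes that define the set stood at 2095 (Chga) and 6320 (Chgb) CPM in control 1. Since 3′ libraries count molecules and not fragments, levels are given in CPM and not per length. In sums like these, more cells making a gene and more RNA of it per cell cannot be told apart, and the per-barcode counts are given for that reason.

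**Figure D2:**
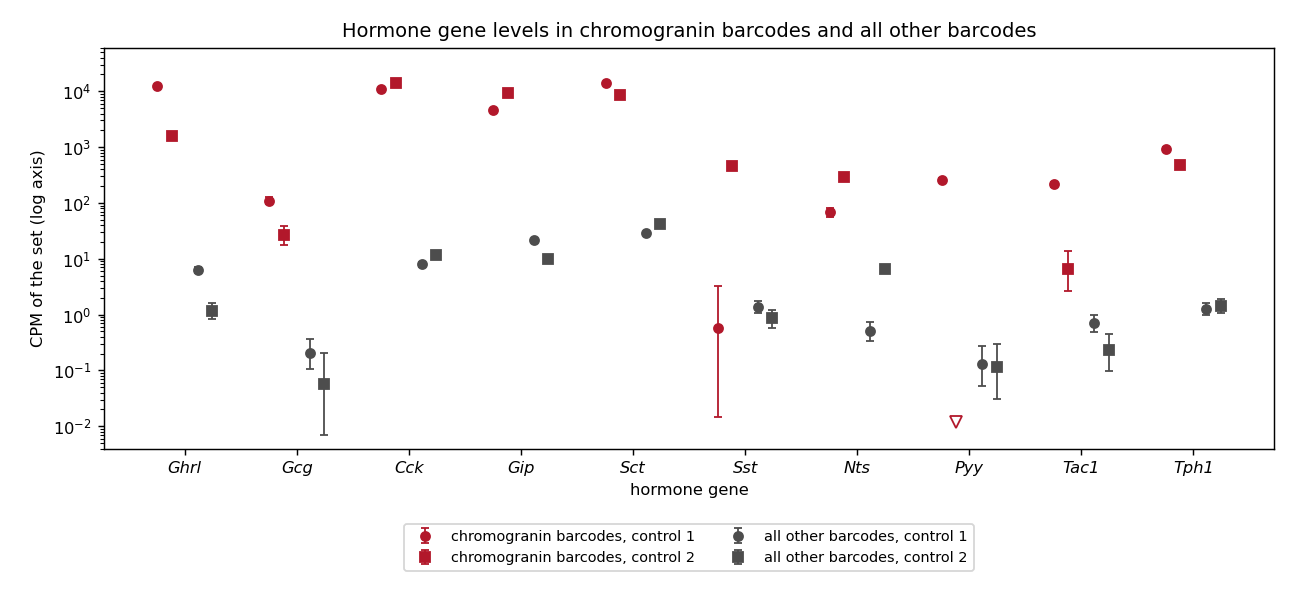
Level of each hormone gene in CPM, UMIs per 1000000 of the set (log axis), in chromogranin barcodes (red, left) and all other barcodes (grey, right), with exact Poisson 95% intervals; circles are control 1, squares control 2. The open triangle marks 0 UMIs of Pyy in control 2, where its level in all other barcodes was 0.114 CPM, and Sst in control 1 is the other pair of points in reversed order.

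Secretin, which Sct encodes and which drives bicarbonate secretion by the pancreas, was the most widespread. Sct had 24518 UMIs in the chromogranin barcodes and 1525 in all other barcodes of control 1, which is 14158 and 28.9 CPM. In control 2 it had 9193 and 1499 UMIs, or 8622 and 42.7 CPM. It reached 5 UMIs in 32 of 59 and 13 of 21 chromogranin barcodes (54.2%, exact 95% interval 40.8 to 67.3%, and 61.9%, interval 38.4 to 81.9%), with medians of 132 and 82 UMIs in them. The fitted log2 fold change was 8.21 ± 1.16 (SE, adjusted p = 3.80e-05, edgeR). After each barcode was thinned to 2000 UMIs, 55.8% of the chromogranin barcodes of control 1 that were deep enough (52 of 59) still had an Sct UMI.

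Cck encodes cholecystokinin, which empties the gallbladder and stimulates pancreatic enzyme release. It had 18916 and 417 UMIs in the chromogranin and all other barcodes of control 1, and 14902 and 402 in control 2. Levels were 10923 and 13977 CPM in the chromogranin barcodes of controls 1 and 2, against 7.91 and 11.5 in all others. The log2 fold change was 10.25 ± 1.27 (SE, adjusted p = 9.99e-06, edgeR). Only 8 and 7 barcodes reached 5 UMIs, and the spread among them was wide. In control 1 the 3 highest held 9457, 4847 and 2346 UMIs, and in control 2 they held 6775, 4389 and 3658. The highest barcode alone thus gave 9457 of the 18916 Cck UMIs of the set in control 1 and 6775 of 14902 in control 2.

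Gip encodes glucose-dependent insulinotropic polypeptide, an incretin that raises insulin release after a meal. It had 7863 and 1146 UMIs in the chromogranin and all other barcodes of control 1, and 9981 and 342 in control 2. This is 4541 and 9361 CPM in the chromogranin barcodes, against 21.7 and 9.75 in all others. The log2 fold change was 8.71 ± 1.07 (SE, adjusted p = 8.96e-06, edgeR). Each library had 6 barcodes at 5 or more UMIs, with medians of 1061.5 and 644.5 UMIs. The highest of them held 2811 UMIs in control 1 and 6941 in control 2.

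Ghrl encodes ghrelin, best known as the appetite hormone of the stomach. It had 21956 and 333 UMIs in the chromogranin and all other barcodes of control 1, and 1658 and 41 in control 2. The fitted log2 fold change was 10.60 ± 1.06 (SE, adjusted p = 9.63e-07, edgeR). In control 1 Ghrl reached 5 UMIs in 7 barcodes, and the 3 highest held 11098, 8247 and 1597 UMIs. In the first 2 of these, Ghrl made up 33.9% and 25.7% of all UMIs. In control 2 it reached 5 UMIs in 2 barcodes, with 1557 and 99 UMIs, so 93.9% of it lay in 1 barcode. The level in all other barcodes was 6.32 CPM in control 1 and 1.17 in control 2, and in both libraries it was spread thinly, with a highest count of 4 and 2 UMIs per barcode.

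Gcg, Nts and Pyy encode proglucagon, neurotensin and peptide YY, products typical of L cells and of the distal gut. All 3 were rare in this proximal tissue. Gcg had 189 UMIs in 1 chromogranin barcode of control 1 and 28 UMIs in 3 of control 2, against 11 and 2 UMIs in all other barcodes. Of the 28 UMIs, 24 lay in 1 barcode. The log2 fold change of Gcg was 8.83 ± 0.42 (SE, adjusted p = 1.36e-10, edgeR). It rests almost wholly on 1 barcode of each library, and the p-value does not measure the spread between barcodes. Nts had 118 UMIs in 2 barcodes of control 1 (61 and 57) and 314 in 2 of control 2 (313 and 1). Outside the set Nts had 27 and 230 UMIs, of which 208 lay in 1 barcode of control 2 with 823 UMIs in all, 341 genes and 2 Chga UMIs, which the minimum of 500 genes kept out. The log2 fold change of Nts was 6.07 ± 0.40 (SE, adjusted p = 5.24e-09, edgeR). Gcg and Nts passed the filter on low counts only through the chromogranin barcodes, so their p-values are a description. Pyy had 447 UMIs in control 1, of which 336 and 101 lay in 2 barcodes, and 7 UMIs outside the set. In control 2 it had 0 UMIs in the 21 chromogranin barcodes, which allows up to 2.81 CPM, and 4 UMIs outside. As shares, Pyy reached 5 UMIs in 3 of 59 barcodes (5.08%, exact 95% bounds 1.06 and 14.1%) and in 0 of 21 (upper bound 16.1%), and no test was made between the libraries.

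Sst encodes somatostatin, the inhibitory peptide of D cells. All 496 Sst UMIs of the chromogranin barcodes of control 2 came from 1 barcode, and control 1 had a single UMI. All other barcodes held 72 UMIs in control 1 and 30 in control 2. The level was thus 0.577 against 1.37 CPM in control 1 and 465.2 against 0.855 in control 2, in opposite directions. The fit gave a log2 fold change of 5.66 ± 1.54 (SE, adjusted p = 0.0133, edgeR), which rests on that barcode. With DESeq2's Wald test the adjusted p was 0.437. In control 1, 1 barcode outside the set held 15 Sst UMIs with no Chga or Chgb UMI.

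Tph1 encodes the first enzyme of serotonin synthesis outside the nervous system, and Tac1 encodes substance P. Both are typical of enterochromaffin cells. Tph1 had 1632 and 66 UMIs in the chromogranin and all other barcodes of control 1, and 508 and 51 in control 2, with a log2 fold change of 8.87 ± 0.54 (SE, adjusted p = 1.73e-09, edgeR). It was the second most widespread of the 10 genes, at 5 or more UMIs in 22 of 59 and 8 of 21 barcodes (37.3% and 38.1%), yet at moderate counts, with medians of 50 and 26 UMIs. Tac1 had 371 UMIs in control 1, where 5 barcodes reached 5 UMIs and the highest held 186. In control 2 it had 7 UMIs, all in 1 barcode. Outside the set it had 37 and 8 UMIs, and the log2 fold change was 7.35 ± 0.60 (SE, adjusted p = 8.76e-08, edgeR). Tac1 passed the filter on low counts only through the chromogranin barcodes, so its p-value is a description. Within the libraries the Tac1 ratio was 305.3 in control 1 and 28.8 in control 2.

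By level in the chromogranin barcodes of control 1, the order was Sct, Ghrl, Cck, Gip, Tph1, Pyy, Tac1, Gcg, Nts and Sst. In control 2 it was Cck, Gip, Sct, Ghrl, Tph1, Sst, Nts, Gcg, Tac1 and Pyy. Against the spread between libraries, Cck (12450 ± 2159 CPM, SD, n = 2), Sct (11390 ± 3914), Ghrl (7117 ± 7866) and Gip (6951 ± 3409) are not separated. Tph1, at 709.4 ± 329.5 CPM, was below all 4 in both libraries. Without the barcodes over 50000 UMIs, the level of Sct was 25167 CPM in control 1 and 22953 in control 2, those of Cck 18880 and 37255, of Gip 8818 and 24921, of Ghrl 24611 and 4147 and of Tph1 1772 and 1271. Barcodes with Sct were then 30 of 52 and 12 of 19.

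Most hormone-positive barcodes carried more than 1 of the genes. At 5 or more UMIs, 30 of 59 barcodes in control 1 and 14 of 21 in control 2 held at least 2 of the 10 genes, and the most in a single barcode was 7 and 6. Of the 45 gene pairs, 19 shared a barcode in both libraries, 19 in neither and 7 in 1 of them. In control 2 every shared pair of Ghrl, Gcg or Nts, except Ghrl with Sst, came from 1 barcode of 45816 UMIs. The number of pairs shared in both libraries leans on that barcode. Sst reached 5 UMIs in 0 and 1 barcodes, so its pairs could hardly be shared. Sct was the common partner. Of the Tph1-positive barcodes, 21 of 22 and 7 of 8 also held Sct, and of the Cck-positive barcodes, 7 of 8 and 7 of 7 did, where 32 of 59 and 13 of 21 of all chromogranin barcodes held Sct. The 7 Cck-positive barcodes of control 2 include the one of 615784 UMIs, whose 5 Cck and 17 Sct UMIs are 8.12 and 27.6 CPM, below the 11.5 and 42.7 CPM of all other barcodes. Without barcodes over 50000 UMIs, 6 of 7 Cck-positive barcodes of control 1 and 6 of 6 of control 2 held Sct. Of the Gip-positive barcodes 5 of 6 held Sct in either library, and without barcodes over 50000 UMIs 5 of 6 in control 1 and 5 of 5 in control 2. All 7 Ghrl-positive barcodes of control 1 and 1 of 2 in control 2 held Sct.

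**Figure D3:**
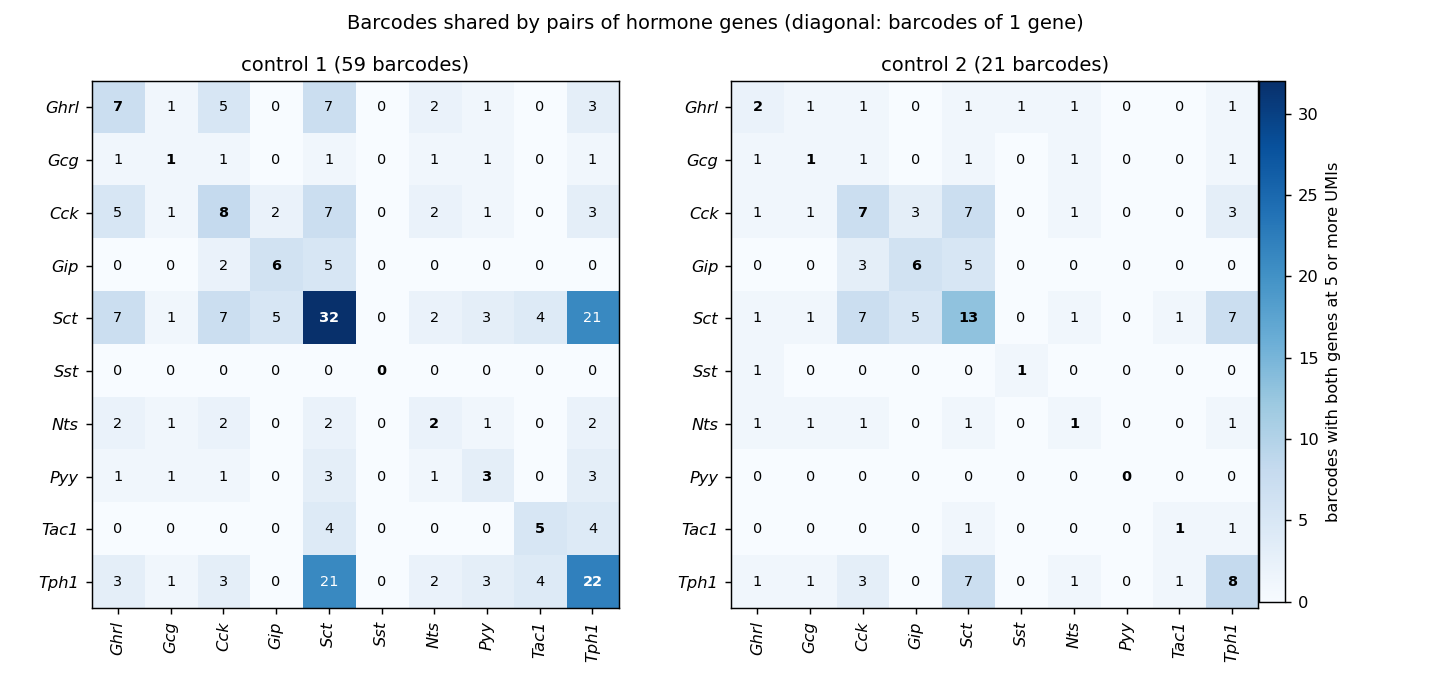
Number of chromogranin barcodes in which both genes of a pair reached 5 UMIs, in control 1 (left, 59 barcodes) and control 2 (right, 21 barcodes); the diagonal gives the barcodes of each gene alone. Sct shares barcodes with most genes, and the Gip row is 0 with Tph1 and Ghrl in both libraries.

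Some pairs were not seen together. Gip and Tph1 shared 0 barcodes among 6 and 22 positive barcodes in control 1 and 6 and 8 in control 2. Gip shared none with Ghrl, Gcg, Nts, Pyy or Tac1 either, and shared 2 and 3 with Cck. Few barcodes were positive for the genes that shared none, so these zeros cannot show that Gip excludes them. Ghrl had 7 and 2 positive barcodes in controls 1 and 2, Tac1 5 and 1, and Pyy 3 and 0. Nts had 2 and 1, and Gcg 1 and 1. The 2 barcodes with most Ghrl in control 1 held 151 and 23 Sct UMIs and at most 1 UMI of Cck, Gip or Tph1. Ghrl also appeared beside Cck, in 5 of 7 Ghrl-positive barcodes of control 1. At the other end, 1 barcode of each library carried most of the list. In control 1 it held 9457 Cck, 7158 Sct, 878 Ghrl, 189 Gcg, 61 Nts, 16 Tph1 and 6 Pyy UMIs among 45528. In control 2 the like barcode held 6775 Cck, 5836 Sct, 1557 Ghrl, 313 Nts, 114 Tph1 and 24 Gcg UMIs among 45816. Both barcodes were below 50000 UMIs, they had 109 and 107 UMIs of the further enteroendocrine markers, and Gip and Sst were at 0 in each. Whether either holds more than 1 cell was not tested. The single Sst-positive barcode of control 2 held 99 Ghrl UMIs and 2 Sct UMIs.

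Across chromogranin barcodes, Pearson's r of log-transformed levels was 0.522 in control 1 and 0.776 in control 2 for Cck and Sct, and 0.422 and 0.400 for Sct and Tph1. For Gip and Sct it was 0.239 and 0.276. These are descriptions over 59 and 21 barcodes of 1 library each, which share depth and free RNA.

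When each barcode was assigned to the gene with most UMIs (at least 5), Sct led 11, Tph1 10, Gip 6, Cck 4, Tac1 3 and Ghrl 2 of the 59 barcodes in control 1, and 23 had no leader. In control 2 Gip led 5, Sct 4, Cck 3, Tph1 3 and Sst 1 of 21, and 5 had none; the barcode of 615784 UMIs is 1 of the 4 led by Sct. The leading gene went with different amounts of the 2 chromogranins. In Tph1-led barcodes the median was 153 Chga and 341 Chgb UMIs in control 1, and 16 and 65 in control 2. In Gip-led barcodes it was 0 Chga and 8.5 Chgb in control 1, and 0 and 8 in control 2. Chga was at 0 in 5 of 6 and 3 of 5 Gip-led barcodes and in 0 of 10 and 0 of 3 Tph1-led ones. The Gip-led barcodes of control 2 include 1 of 50642 UMIs, with 14 Gip, 0 Chga and 3 Chgb UMIs. It held 5899 UMIs of red cell markers and 0 of the further enteroendocrine markers. Cck-led barcodes had medians of 0 and 5 Chga but 23 and 163 Chgb UMIs. Since Chga and Chgb define the set, barcodes of Gip or Cck with fewer than 2 UMIs of both are among the other barcodes and are not in these counts. The barcodes also differed in depth, with median totals of 22800 and 13146 UMIs in Tph1-led and 12330 and 12571 in Gip-led barcodes.

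The genes whose levels most resembled each hormone gene were ranked over the chromogranin barcodes by the lower Pearson's r of the 2 libraries, among 8176 genes. This is reported for the 4 members with at least 3 positive barcodes in each library. For Cck they were Ffar1 (r = 0.868 and 0.850 in controls 1 and 2), a receptor for long-chain fatty acids, Scg2 (0.773 and 0.886), a granin, and Rbp4 (0.716 and 0.772), a retinol carrier. For Gip they were Diaph3 (0.934 and 0.875), an actin regulator of the formin family, Pkib (0.798 and 0.812), an inhibitor of protein kinase A, and Car8 (0.847 and 0.778). For Sct they were Myl7 (0.797 and 0.754), a myosin light chain, Adgrg4 (0.703 and 0.770), an adhesion receptor, and Tm4sf4 (0.781 and 0.686). For Tph1 they were Mapk14 (0.793 and 0.840), a p38 kinase, Krt7 (0.864 and 0.792), a keratin, and Lmx1a (0.853 and 0.760), a homeobox transcription factor. Ffar1 was detected in 6 and 5 barcodes and Diaph3 in 10 and 6, so these values rest on few points.

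Most tested genes of the machinery that goes with hormone production were higher in the same barcodes. Over 7 lists of 108 genes, with members and chromogranins left out, 73 genes were tested, of which 61 were higher, 1 was lower and 11 did not pass the threshold. Of all genes tested 10.9% were higher. The median log2 fold change was 6.58 over the 73 genes and -0.12 over all genes tested. Of the 73 genes, 37 were under the filter level in at least 1 sum of other barcodes and so passed the filter through counts in the chromogranin barcodes, and 36 of these 37 were higher. Of the 36 list genes at or above it in both sums of other barcodes, 25 were higher and 1 lower, and of the 13832 genes of this kind in all 7.97% were higher. The lists hold genes known from this cell type, as do the further markers above, so their counts and direction are a description of the barcodes and no support for the label.

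**Figure D4:**
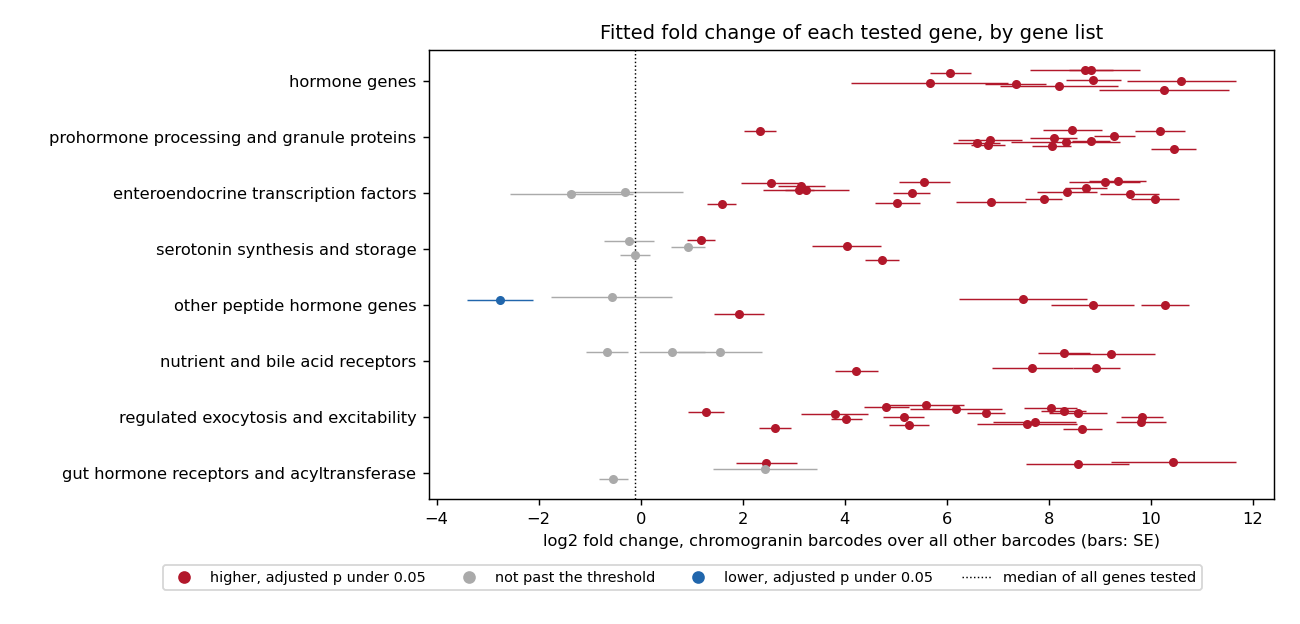
Fitted log2 fold change (x axis; bars are SE), chromogranin barcodes over all other barcodes, for each tested gene of 8 lists (rows). Red points are higher and blue lower at an adjusted p under 0.05, grey ones are not past it, and the dotted line marks the median of all genes tested, -0.12. All points of the hormone, granule and exocytosis rows are red.

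Of the genes for prohormone processing and granules, the 12 tested were higher, of which 4 were at the filter level in both sums of other barcodes. Pcsk1n, which encodes an inhibitor of the prohormone convertase PC1, had a log2 fold change of 10.44 ± 0.44 (SE). It stood at 111.3 ± 3.1 CPM (SD, n = 2 libraries) in chromogranin barcodes and a mean of 0.0760 in all others. Being under the filter level in both sums of other barcodes, it was tested only through its counts in the chromogranin barcodes. The granins Scg2 and Scg3 were higher by 10.18 and 9.29 on the log2 scale, and the granule protein gene Resp18 by 8.82. Of the genes for exocytosis and electrical excitability, the 18 tested were higher, of which 7 were at the filter level in both sums of other barcodes. The enteric neuron markers stood at 36.4 and 31.9 CPM in the same barcodes, against 1.46 and 1.43 in all others, and their part in the result was not tested. The 18 genes include Snap25 (log2 fold change 9.82), a SNARE protein, Rab3c (9.80), a vesicle GTPase, Scn3a (8.66), a sodium channel, and Kcnb2 (8.56), a potassium channel, which reached 1096 CPM.

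Of 18 tested enteroendocrine transcription factors, 16 were higher, 8 of them among the 10 at the filter level in both sums of other barcodes. Among those with a large change were Lmx1a (10.07), Etv1 (9.58) and Pax6 (9.35). Lmx1a averaged 246.9 CPM in chromogranin and 0.204 in all other barcodes. Neurod1, one of the further markers, was higher by 8.72. Neurog3, the gene of early endocrine progenitors, did not pass the threshold, at 3 and 0 UMIs in the chromogranin barcodes and 52 and 53 in all others (log2 fold change -0.32 ± 1.14, SE, adjusted p = 0.889, edgeR). Hhex, used by somatostatin cells, did not pass it either, with 0 and 2 UMIs in the set and 97 and 60 outside. Neurod2 and Pax4 were not tested for low counts.

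Of 7 genes of serotonin synthesis and storage, Tph1 among them, 4 were higher and 3 did not pass. The vesicular monoamine transporter genes Slc18a1 and Slc18a2 were higher by 4.73 and 4.03 on the log2 scale, although 51.0% of the Slc18a2 UMIs of control 1 lay in 1 barcode and control 2 had 7. Gch1, needed for the cofactor of Tph1, was higher by 1.18. Ddc, which completes serotonin synthesis, averaged 338.7 ± 136.8 CPM in chromogranin and 161.5 ± 23.9 in all other barcodes (SD, n = 2), with an adjusted p of 0.0609 (edgeR). Under 7 alternatives Ddc did pass, by 0.94 on the log2 scale using DESeq2's size factors (adjusted p = 0.0260, edgeR) and by 1.63 without barcodes over 50000 UMIs (adjusted p = 3.96e-06, edgeR). Slc6a4, the serotonin reuptake transporter, averaged 9.89 CPM in chromogranin and 9.97 in all other barcodes (adjusted p = 0.794, edgeR). The libraries went in opposite directions, at 17.9 against 13.1 CPM in control 1 and 1.88 against 6.81 in control 2. In control 2 the set had 2 Slc6a4 UMIs. With 1 or more UMI of Chga or Chgb as the limit, Slc6a4 and Maob, a monoamine oxidase, were higher by 0.83 and 0.71 on the log2 scale (adjusted p = 0.0422 and 0.00599, edgeR).

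Among 18 other peptide hormone genes only 6 passed the filter on low counts, 4 of them higher, 1 lower and 1 not past the threshold. Of the 3 at the filter level in both sums of other barcodes, 1 was higher and 1 lower. Cartpt, the CART prepropeptide, was higher by 10.28 ± 0.47 (SE) with 84 and 104 UMIs in the set. Ucn3, urocortin 3, had 72 UMIs in control 1 and 2 in control 2 (log2 fold change 8.86), Iapp, the amylin gene, had 2 and 16 UMIs, each in 1 barcode (7.50), and Nucb2, the nesfatin precursor, was higher by 1.93. Of the 36 Nucb2 UMIs of control 2 in the set 83.3% lay in 1 barcode, and without barcodes over 50000 UMIs its log2 fold change was 1.30 (adjusted p = 0.101, edgeR). Nmb, neuromedin B, was lower with a log2 fold change of -2.75 ± 0.64 (SE, adjusted p = 0.00450, edgeR), with 2 and 3 UMIs in the set and 699 and 335 outside; with DESeq2's Wald test the adjusted p was 0.0512. Of 8 tested nutrient and bile acid receptors 5 were higher. Only 1 of these 5 was among the 4 receptors at the filter level in both sums of other barcodes. Casr, the calcium-sensing receptor, had 21 and 29 UMIs in the set and 2 and 0 outside (9.22), and the cation channels Trpa1 and Trpc4 were higher by 8.93 and 8.30, with 93.8% of the 113 Trpa1 UMIs of control 2 in 1 barcode. Of the free fatty acid receptors, Ffar1 was higher by 7.68 and Ffar2 by 4.22, and Ffar3 and Ffar4 did not pass, at log2 fold changes of 1.56 ± 0.82 and 0.61 ± 0.65 (SE). With at least 5 UMIs of Chga or Chgb as the limit, Ffar3 passed (log2 fold change 2.46, adjusted p = 0.0494, edgeR). Of 19 genes for gut hormone receptors and the ghrelin acyltransferase, 14 were not tested for low counts, Mboat4 of the acyltransferase among them, 3 were higher and 2 did not pass. In this list 2 genes were at the filter level in both sums of other barcodes, and 1 of them was higher. Sstr5, a somatostatin receptor, had 16 and 7 UMIs in the set and 0 in all other barcodes. Sstr1 was higher by 8.56. Htr4, a serotonin receptor, was higher by 2.46, but its 41 UMIs of control 2 were all in 1 barcode, and without barcodes over 50000 UMIs the set had 0 Htr4 UMIs in both libraries, against 240 and 85 in all other barcodes, and the call turned to lower (adjusted p = 0.0379, edgeR). Sstr2 (2.44 ± 1.03, SE) and Glp1r (-0.54 ± 0.29, SE) did not pass. Without barcodes over 50000 UMIs Sstr2 passed at 3.36 (adjusted p = 0.0183, edgeR), and under 25% mitochondrial UMIs Glp1r was lower at -0.75 (adjusted p = 0.0477, edgeR).

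Outside the chromogranin barcodes, Sct was far higher in barcodes with goblet or tuft markers than in T cell barcodes of the same library. The other barcodes were sorted in order by hemoglobin, mast, goblet, Paneth, tuft, Cd3 and enterocyte genes, at limits chosen after the data were seen. In barcodes with at least 10% goblet marker UMIs, Sct reached 300.7 CPM in control 1 (exact Poisson 95% bounds 275.0 and 328.1) and 273.5 in control 2 (bounds 256.1 and 291.9). In those with at least 0.5% tuft marker UMIs it reached 523.2 (bounds 436.8 and 621.6) and 599.4 (bounds 489.3 and 727.0). The tuft-marker sets were small. In control 1 there were 18 such barcodes with 129 Sct UMIs, 41 of them in 1 barcode. In control 2 the 5 tuft-marker barcodes with 5 or more Sct UMIs were 55.6% of the set. In barcodes with 2 or more Cd3 UMIs, a cell type that should lack the gene, it was 9.84 (bounds 8.42 and 11.4) and 9.14 (bounds 7.23 and 11.4). The goblet-marker level was thus 30.5 and 29.9 times that of the Cd3 barcodes, the tuft-marker level 53.1 and 65.6 times, and the enterocyte-marker level 2.86 and 3.04 times. The bounds cover counting error only. Chromogranin barcodes were at 14158 and 8622 CPM. The sets and their limits were chosen with these values in view, so no test was run.

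Cck, Gip and Ghrl lay closer to their Cd3 level there. Cck in goblet-marker barcodes was 0.933 and 0.599 times its level in Cd3 barcodes, Gip 1.03 and 0.780 times, and Ghrl 1.52 and 1.85 times. Tac1 was at 1.15 times its Cd3 level in control 1 and at 15.5 times in control 2, the second of these from 6 UMIs, 5 of them in 1 barcode. Of the barcodes outside the set with 5 or more Sct UMIs, 29 of 49 in control 1 and 58 of 70 in control 2 were goblet-marker barcodes, and 6 and 5 were tuft-marker ones. Neither Chga nor Chgb had a UMI in 39 of the 49 and 69 of the 70, and the 10 further enteroendocrine markers gave none in 28 and 50. These barcodes were deep, with medians of 34373 and 28192.5 UMIs. After thinning to 2000 UMIs, an Sct UMI was present in 39.1% and 33.7% of goblet-marker barcodes and in 1.76% and 1.75% of Cd3 barcodes; unthinned it was in 92 of 145 and 153 of 235 goblet-marker and in 145 of 2499 and 69 of 1433 Cd3 barcodes. Median depths were 5202 and 9753 UMIs in goblet-marker and 5579 and 5587 in Cd3 barcodes. Whether secretin peptide is made there was not measured.

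**Figure D5:**
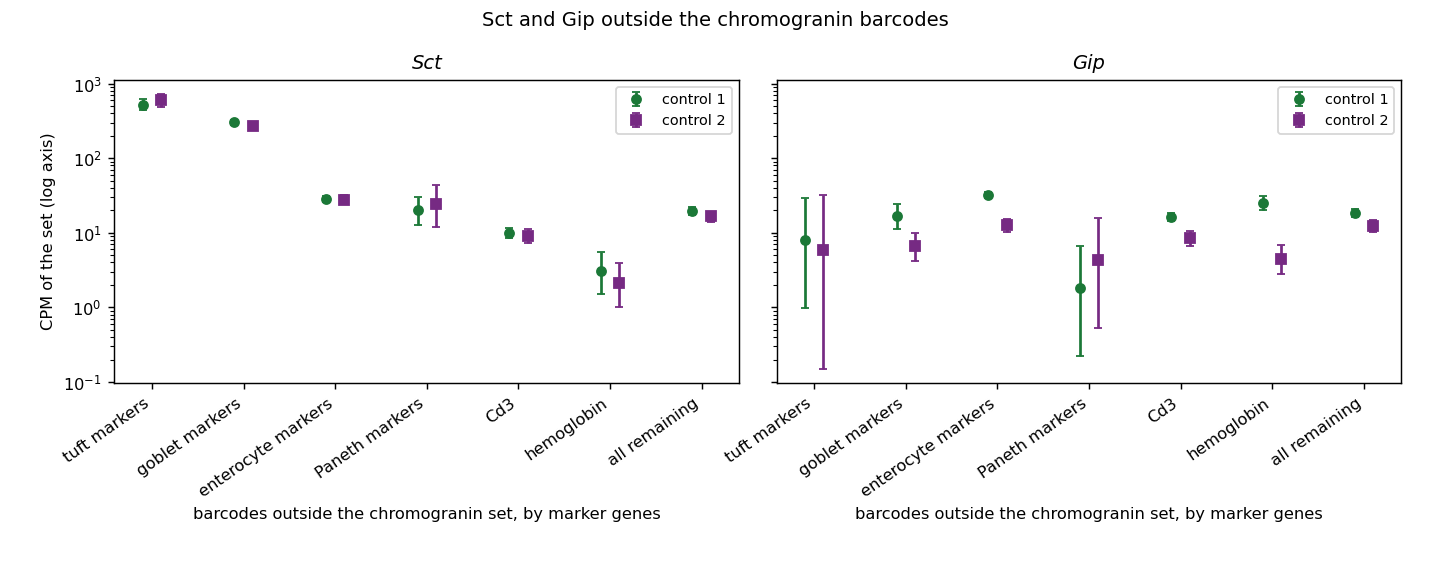
Level of Sct (left) and Gip (right) in barcodes outside the chromogranin set, in CPM (log axis) with exact Poisson 95% intervals, sorted by marker genes; circles are control 1, squares control 2. Sct is highest in tuft-marker and goblet-marker barcodes in both libraries; Gip shows no such order.

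Gip behaved differently outside the set in the 2 libraries. It was found in a similar number of other barcodes, 387 in control 1 and 312 in control 2. In control 1, however, 60 of them held 5 or more UMIs and 34 held 10 or more, up to 32, while the highest count in control 2 was 4. These 60 barcodes held 769 of the 1146 Gip UMIs outside the set. They were spread over marker sets, with 28 among enterocyte-marker, 12 among Cd3, 5 among hemoglobin-dominated, 1 among goblet-marker and 14 among the remaining barcodes. In 43 of the 60 no other hormone gene had a UMI, in 51 neither Chga nor Chgb did, and in 53 the further enteroendocrine markers were at 0. For comparison, Cck reached 5 UMIs in 6 and 3 other barcodes and Ghrl in none. What sets these Gip counts was not tested.

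Tph1 had few UMIs outside the set. It reached 5 UMIs in 1 other barcode of control 1 and 3 of control 2. One of these, in control 2, held 2025 UMIs of mast cell markers and 6 of Tph1, an enzyme that mast cells also use, with no other hormone gene. In Cd3 barcodes Tph1 was at 0.518 and 0.347 CPM.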

How the data were processed

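RNA of the proximal small intestine was captured with 10x Genomics 3′ chemistry in 2 libraries of 1 group. The authors deposited a matrix of UMI counts per gene and barcode, not normalized, made with Cell Ranger 7.1.0 per the file headers; the submitters' processing notes also name Cell Ranger 6.1 and the builds GRCm38 and mm10. The counts totalled 54451793 UMIs in control 1 and 36139325 in control 2, and the lowest barcode had 500. No barcode was removed and no doublet caller was run. The 2 libraries shared 17 barcode sequences, none of them in the chromogranin set.

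Levels are UMIs per 1000000 of a set (CPM) with exact Poisson intervals, and shares have exact Clopper-Pearson intervals at 95%; both cover counting error only. A zero was bounded at 3 counts. Correlations used log1p of counts per 10000. Thinning drew 2000 UMIs per barcode. Sums per library and set were tested with edgeR 4.0.16 (filterByExpr, TMM, quasi-likelihood, library as block, 1 residual degree of freedom per gene before pooling of the spread) in R 4.3.3. On data simulated for this comparison (14961 genes), the test called 46 of 49 genes raised by 3 on the log2 scale, 28 of 48 raised by 2, 18 of 45 lowered by 2, 31 of 47 lowered by 3 and 6 of 14772 unchanged genes. The simulated sums were independent, had the same dispersion for all genes and held no dominant barcode. In the real set of control 2, a single barcode held 57.8% of the UMIs. These counts check the procedure and do not give its error rate on the real sums. The p-values measure the spread between these libraries, which may be technical. The block pairs sums because each chromogranin sum and its counterpart are from the same library. DESeq2 1.42.0 was an alternative.

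The 10 genes and the lists were chosen with earlier results of these data known. Genes named are the members; from each list up to 4 called genes with the largest fold change and up to 2 that did not pass or were lower; the 3 nearest genes by correlation; and markers. Neurod1 was added after its value was seen, and some genes that the rule names are not reported here.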

Additional observations from a re-analysis of the deposited data

How the results depend on the processing

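Of the 9 hormone genes tested, 9 were called higher under each alternative run except DESeq2's Wald test, where 8 were, since Sst was lost (log2 fold change 3.99, adjusted p = 0.437); without a filter on low counts Pyy was called as well, for 10. With no replicate block, 9 were called, with 1373 genes higher and 1102 lower over all genes. Leaving out a library, the log2 ratio of Sst was 9.09 within control 2 and -1.24 within control 1. The ratio of Pyy was 1944 within control 1 (258.1 against 0.133 CPM); within control 2 Pyy had 0 UMIs in the set, so no log2 ratio was taken. The number of genes lower was 874 with DESeq2's Wald test, 2585 without barcodes over 50000 UMIs, 2658 with at least 5 UMIs of Chga or Chgb, and 2703 with at least 3 UMIs of the further enteroendocrine markers, the last added after the data were seen; it was 1606 in the fit reported. List genes called lower were 0 with DESeq2's Wald test (1 at an unadjusted p under 0.05), 2 under 25% mitochondrial UMIs, at 5 or more UMIs, at 1 or more UMI and with the further markers, and 3 without barcodes over 50000 UMIs, against 1. List genes called higher numbered between 59 and 66. Nucb2 did not pass under 5 alternatives, nor did Htr4 with at least 5 UMIs or with the further markers (log2 fold changes -0.99 and -0.84, against 2.46). St18 and Mnx1 were lost under 1 each; Ddc was gained under 7, Sstr2 under 3 and Ffar3 under 2. Slc5a1, a glucose transporter, was called lower under 3, at -2.60 with at least 5 UMIs, against -0.65 in the fit reported. With few barcodes per library, absence of a gene or pair was not detectable beyond these counts.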
